A study of Mus musculus with 24 samples.

Results

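The cytosolic ribosomal protein genes encode the protein shell of the ribosomes that work outside mitochondria. Their members were taken by symbol, as every name that starts with Rps (small, 40S subunit) or Rpl (large, 60S subunit) followed by digits and at most further letters or digits, without a hyphen and without the kinases of Rps6. Of 35492 symbols in the expression tables, 89 matched. A total of 86 reached 1 TPM in at least 3 libraries and are described here, 36 of the small and 50 of the large subunit. TPM is the abundance that kallisto estimates per length of transcript, scaled to sum to 1000000 in each library. The 3 symbols under that level were Rpl10l, Rpl3l and Rps27rt. The rule is one of names, so it also takes 7 symbols annotated as other than protein coding (Rpl32l, Rpl37rt, Rpl6l, Rps12l1, Rps3a2, Rps3a3 and Rps4l) and Rps19bp1, a nucleolar protein that binds Rps19 and is not part of the ribosome. It leaves out some genes of true ribosomal proteins, such as Rplp0, Rplp1, Rplp2, Rpsa, Fau and Rack1, which are given below within a list of 7.

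Sorted CD4+ CD62L+ naive T cells from spleen and lymph nodes of C57BL/6 mice were held on anti-CD3 and anti-CD28, transfected for 6 h by Lipofectamine with the STING ligand cGAMP or with a control dinucleotide, and then cultured toward TH1 (IL-12 and anti-IL-4) or TH9 (TGF-β, IL-4 and anti-IFN-γ). RNA was taken at 16 or 48 h. The 24 libraries carry 8 labels, TH1 or TH9, 16h or 48h, Control or cGAMP, with 3 libraries each, from independent experiments per the series' design text. All groups share the T cell receptor stimulus and the transfection, the control is itself a dinucleotide, no library comes from untransfected cells, and only cultured cells were measured.

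The subset markers did not follow these labels. The TH9 cytokine Il9 stood above Tbx21, the transcription factor of TH1 cells, in 8 of the 12 libraries with a TH9 label but also in 4 of the 12 with a TH1 label. Groups were nevertheless taken from the labels, since no other source for them was used, and every direction below rests on them. In the order of the sample numbers, the higher of Il9 and Tbx21 changed after every 2 libraries. A grouping inferred from that order was not used, so the labelled groups may mix conditions. Each SE and p-value from the 24 libraries rests on the spread within labels. That spread may then hold differences between conditions and not only between repeats. Counted by library, 8 of 24 went against their label in this marker pair, namely replicate 3 of every Control label and replicate 1 of every cGAMP label. The marker pair checks the subset only and not the time or the treatment. Because of the marker pair, each comparison is given from all 24 libraries and again without the 8 that went against their label in it. This leaves the 16 libraries that followed their label in that pair, 2 for each label. Eif4ebp1 was mixed among these 16 too, at 43.7 and 29.9 in TH1 16h cGAMP 2 and 3 and 9.45 and 10.6 in TH1 16h Control 1 and 2. The fit of the 16 checks neither the time nor the treatment labels. That second fit was added after the data had been seen, and its libraries were chosen by measured markers, so its p-values are a description. The libraries did hold T cell RNA, with Cd4 at 17.1 to 180 TPM and the 6 T cell markers together at 167 to 1562 TPM. Lyz2, a myeloid marker, was listed at 0 in 23 libraries, and the summed TPM was at most 0.723 for 3 NK cell markers, 4.37 for 4 myeloid, 7.56 for 4 B cell, 7.83 for 2 CD8 and 6.89 for 3 erythroid markers. Depth is not kept by TPM, so no counting error can be given.

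Each eukaryotic ribosome carries 1 copy of nearly every ribosomal protein, and cells make these proteins in matched amounts. Their messages are among the most abundant in a dividing cell and usually begin with a cytosine and a run of pyrimidines, the terminal oligopyrimidine (TOP) motif. Through that motif the kinase mTOR, by way of the binding protein Larp1, controls how much of each message is translated rather than how much of it is present. T cells that leave the resting state raise ribosome production steeply, and the assembly factors of the nucleolus, many of them targets of Myc, take part in that rise.

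RefSeq promoter entries (GRCm38.p6) matched 62 of the 86 members. The 30 bases around the listed start, 10 before it and 20 from it on, are printed for members that the values below turn on. Capitals mark the longest run that begins with C within 10 bases of the start and goes on with at least 4 more pyrimidines, and 4 members of this set have no such run.
Rps6 (chr4:86857348-86857377, minus strand): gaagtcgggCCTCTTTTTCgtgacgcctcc
Rps15a (chr7:118116128-118116157, minus strand): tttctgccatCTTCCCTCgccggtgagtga
Rps24 (chr14:24490668-24490697, plus strand): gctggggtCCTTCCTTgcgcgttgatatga
Rps27 (chr3:90213629-90213658, minus strand): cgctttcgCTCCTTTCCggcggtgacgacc
Rps27l (chr9:66946076-66946105, plus strand): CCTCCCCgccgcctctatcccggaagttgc
Rpl13a (chr7:45128726-45128755, minus strand): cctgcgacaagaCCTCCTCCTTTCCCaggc
Rpl14 (chr9:120571507-120571536, plus strand): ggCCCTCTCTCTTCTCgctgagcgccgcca
Rpl22l1 (chr3:28805498-28805527, plus strand): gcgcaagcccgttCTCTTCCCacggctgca
Rpl22 (chr4:152325716-152325745, plus strand): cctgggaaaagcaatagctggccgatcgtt
Rpl5 (chr5:107900518-107900547, plus strand): cgtcgcttgcgtgctggtggtgctacatac
Rpl41 (chr10:128549149-128549178, minus strand): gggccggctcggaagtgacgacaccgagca
Rps19bp1 (chr15:80264287-80264316, minus strand): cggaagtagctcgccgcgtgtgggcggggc

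A C exactly at the listed start followed by at least 4 pyrimidines was found in 12 of 62 members (19.4%) and in 2.49% of all 27025 promoters. A run of this kind that began within 10 bases of the start was found in 34 members (54.8%) and 30.8% of all promoters. In the promoter entry of 300 bases, 250 before the start and 50 from it on, and on either strand, CCGGAAG was present in 37.1% of the matched members and 9.12% of all promoters, and GGGCGG in 58.1% and 35.9%. AAGATGGC was present in 8.07% of members and 2.88% of all, CACGTG in 8.07% and 7.24%, and TATAAA in 9.68% and 14.2%. CCGGAAG and AAGATGGC can share the letters AAG, such overlaps were kept, and a match describes letters only.

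Most members were abundant. The median over 24 libraries was at least 100 scaled TPM for 76 members, between 10 and 100 for 4 and under 10 for 6, where scaled TPM are TPM divided by a factor for each library described next. Rpl7, a 60S protein, was highest at 2808 scaled TPM, followed by Rps15a at 2508, Rps24 at 2507, Rps2 at 2281 and Rpl18 at 2018. The 5 lowest were Rps4l at 0.586, Rpl39l at 0.697, Rpl6l at 0.699, Rpl32l at 0.739 and Rps3a2 at 1.04 scaled TPM, and these 5 are also the members that were listed at 0 in at least 1 library. TPM are per length, so these levels can be set beside each other. Reads that members share with other genes limit this. Of the bases of a member's transcript, read as 31-base words, a median of 49.1% also occurred in transcripts of other genes, over 50% in 40 members and under 10% in 7. Rps12l1, a processed pseudogene, shared all of its words with Rps12, and Rpl36, Rps18 and Rps3a2 shared over 90% with others, so that kallisto's division between such pairs is uncertain.

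As deposited, the 86 members together took from 1.58% of all TPM (TH9 48h Control 2) to 16.7% (TH9 16h Control 3), with a median of 9.78%. Much of that range lies in the scale of the libraries. Gm10800, a predicted gene, took 0.0933% to 39.9% of all TPM and Lars2 0.333% to 33.8%, which leaves less of the fixed total for the other genes. Each library was therefore divided by its median ratio over 7838 genes present in all libraries, members left out, and these factors ran from 0.252 to 2.00. After scaling, the summed level of the members ran from 60903 (TH1 16h cGAMP 1) to 157569 (TH1 48h Control 1).

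**Figure D1:**
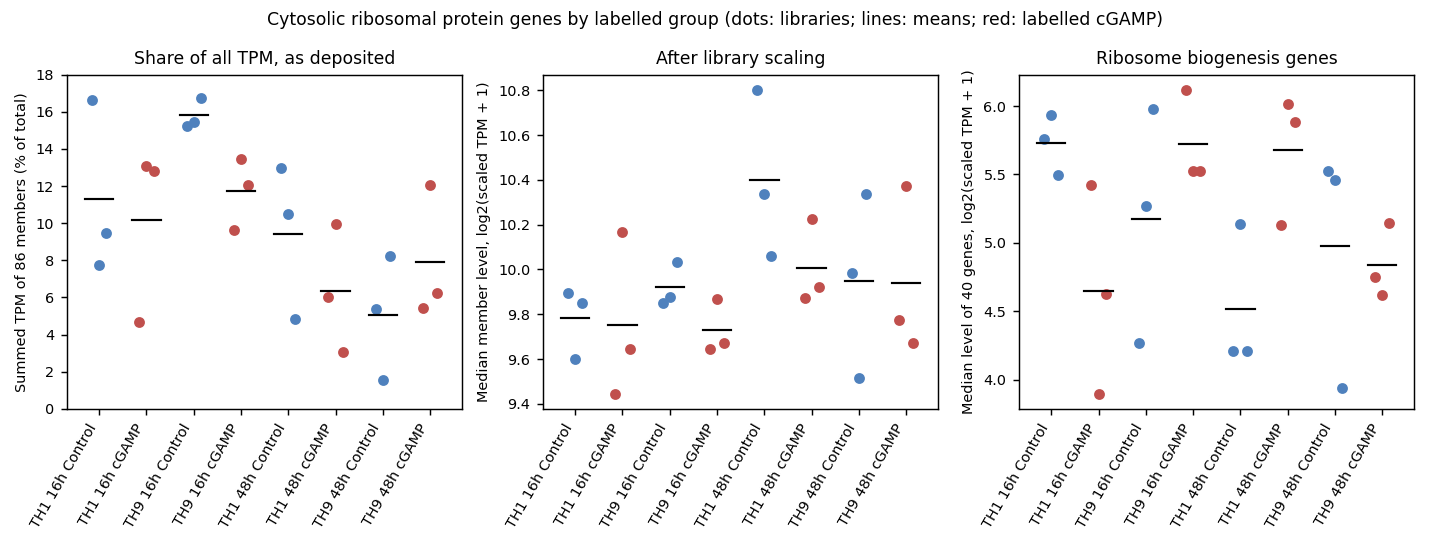
Libraries by labelled group, 3 dots each with their mean as a line, red for cGAMP labels: the members' share of all TPM in percent, the median member level as log2(scaled TPM + 1), and the median of 40 ribosome biogenesis genes on the same log2 scale. Shares of TPM ran from 1.58% to 16.7%, median member levels from 9.45 to 10.80, and 3 libraries labelled TH1 48h Control had the highest group mean, 10.40.

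The scaled levels of most members varied together over the libraries. The typical abundant member had an SD over the 24 libraries of 0.866 in log2 TPM, of 0.379 after scaling, and of 0.201 once the median of all members in the library was taken away. The median SD after scaling was 0.418 over the 2205 tested genes with a mean log2 level of at least 5. Taking away the members' own median lowers their SD in itself, and no such SD is given for other genes. The SD about the library median was under 0.4 in 71 of 86 members. Rpl6 (0.10), Rpl14 (0.11), Rpl34 (0.11), Rps2 (0.11) and Rpl32 (0.12) varied least about the library median, all of them abundant structural proteins of the ribosome. Rpl6, for instance, lay between 1228 and 2832 scaled TPM and was highest in TH1 48h Control 1, the library with the highest member total. The summed small-subunit level was 0.774 to 0.863 of the summed large-subunit level in every library, a range of 0.0894, so both subunits kept their proportion while the total ranged widely.

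The members that varied most were mostly low or not standard ribosomal proteins. The largest SD about the library median was that of Rpl37rt (1.58), a retrotransposed copy, from 2.63 to 137 scaled TPM. Rps3a2 (1.03), Rpl32l (0.90), Rpl7l1 (0.89) and Rpl6l (0.89) followed. In all 13 members reached an SD of 0.5, among them Rps19bp1 (0.79), Rpl22l1 (0.75), Rps27l (0.71), Rps12l1 (0.53) and Rpl27 (0.52).

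**Figure D2:**
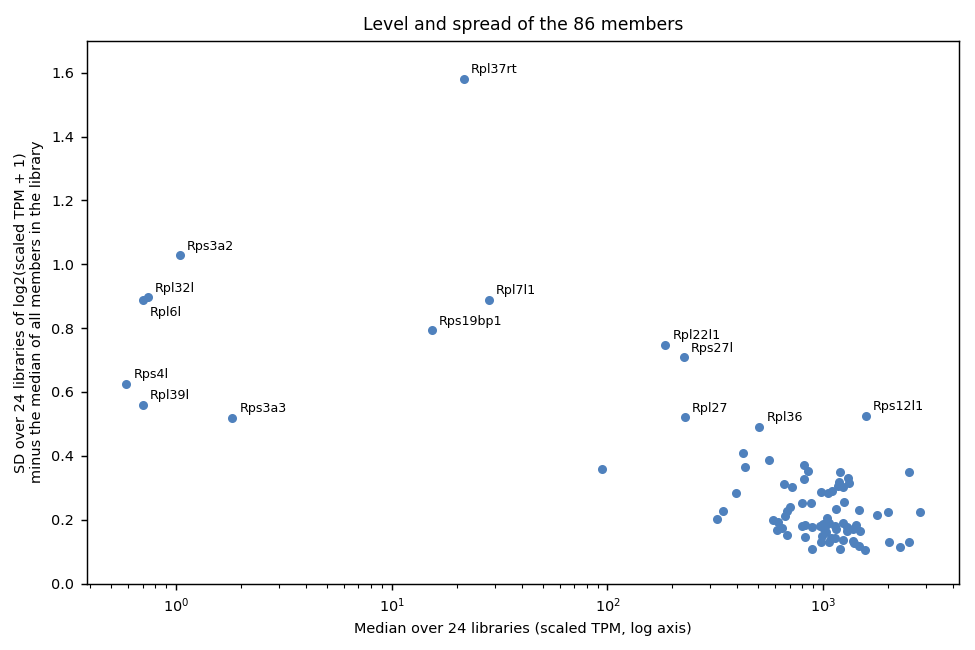
Each dot is 1 of the 86 members, with its median scaled TPM over 24 libraries (log axis) against the SD of its log2 level about the library's median member. Of the dots, 76 sit at 100 scaled TPM or more and 71 have an SD under 0.4, and the named dots above them include the low-level copies and the paralogs Rpl22l1, Rps27l and Rpl7l1.

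Rps6, the small-subunit protein that S6 kinase phosphorylates downstream of mTOR, shows the common pattern. Its scaled TPM were 1515, 1305 and 1389 in TH1 16h Control, 1274, 1825 and 1420 in TH1 16h cGAMP, 1690, 1221 and 1628 in TH9 16h Control and 1332, 1544 and 1435 in TH9 16h cGAMP. At 48 h they were 3202, 2230 and 1695 in TH1 Control, 1607, 1591 and 1350 in TH1 cGAMP, 1462, 1178 and 2060 in TH9 Control and 1404, 2471 and 983 in TH9 cGAMP. The 3 libraries of TH1 48h Control lay above all 3 of TH1 48h cGAMP and of TH1 16h Control. The low value of 983, in TH9 48h cGAMP 3, stood beside 301 scaled TPM for the pseudogene Rps6-ps4, which reached at most 120 in the other libraries and whose transcript shares 84.9% of the words of Rps6.

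That library, TH9 48h cGAMP 3, stood apart in the proportions of the members. Of the 76 abundant members, 9 departed there by at least 1 in log2 from their usual place relative to the library median, against 0 or 1 in every other library. The SD of these departures was 0.653 there and 0.110 to 0.392 elsewhere. Rps15a was high at 6107 scaled TPM, where the other 23 libraries reached at most 4928, and Rpl37, Rps12l1, Rpl5 and Rpl23 were among the others that were high. Rpl22l1 at 20.6, Rps27l at 63.1 and Rps25 at 477 scaled TPM were low. The hyphenated ribosomal protein pseudogenes together came to 10.9% of the member total in it and to 5.11% to 8.18% in the other libraries. The share of this library in the results at TH9 48h is given beside them.

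**Figure D3:**
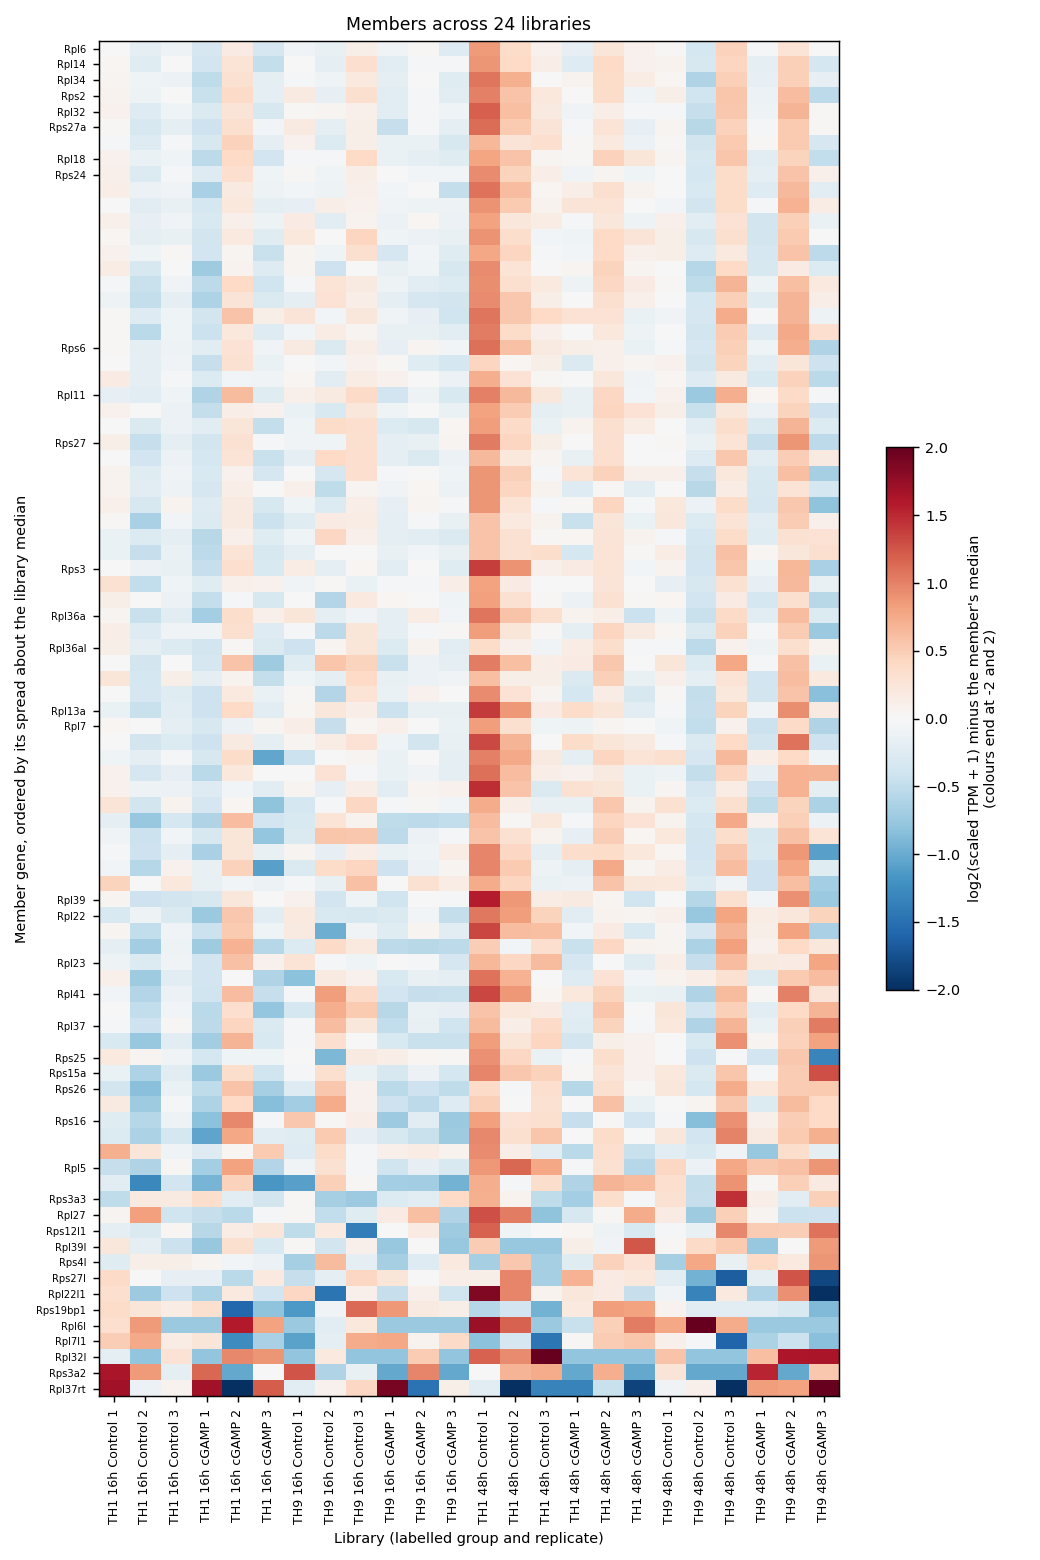
Colours give each member's log2(scaled TPM + 1) in each of 24 libraries minus its own median (ending at -2 and 2), with the members (those named in the text labelled) ordered from the smallest spread about the library median (Rpl6, top) to the largest (Rpl37rt, bottom). Columns change together over most rows, with TH1 48h Control 1 highest, and TH9 48h cGAMP 3 breaks the pattern with Rps15a high and Rpl22l1 and Rps27l low.

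Several members have a paralog, and these pairs differ in how evenly they run. Rpl22, which T cell development in mice needs, and Rpl22l1, which it represses in mice, had medians of 15.2% for Rpl22l1 as a share of Rpl22, from 1.38% (TH9 48h cGAMP 3) to 29.2% (TH1 48h Control 1). Rps27l, a p53 target, was 4.60% to 28.7% of Rps27 with a median of 18.5%. Rpl36al, a copy of Rpl36a without introns, was 32.3% to 69.6% of Rpl36a, with a median of 50.3%. Rpl7l1, a nucleolar relative of Rpl7, was 0.291% to 1.69% of Rpl7. The paralogs known from other tissues were near 0. Rpl10l, a testis gene, was at most 0.649 TPM and Rpl3l, a gene of heart and skeletal muscle, at most 1.72 TPM. Rpl39l reached 1.96 TPM and Rps4l 2.73 TPM, or at most 0.407% of Rpl39 and 0.172% of Rps4x.

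Rpl22l1 was 232, 111 and 139 scaled TPM in TH1 16h Control, 118, 212 and 141 in TH1 16h cGAMP, 245, 66.4 and 197 in TH9 16h Control and 134, 198 and 141 in TH9 16h cGAMP. At 48 h it was 667, 363 and 194 in TH1 Control, 216, 206 and 135 in TH1 cGAMP, 176, 72.2 and 211 in TH9 Control and 120, 348 and 20.6 in TH9 cGAMP. Rpl22 was 897 to 1024 in TH1 16h Control and 1493 to 2285 in TH1 48h Control, which did not overlap, while its paralog overlapped between the same labels. Rps27l had its 2 lowest values, 63.1 and 71.6, in TH9 48h cGAMP 3 and TH9 48h Control 3, where Rps27 stood at 897 and 1556.

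**Figure D4:**
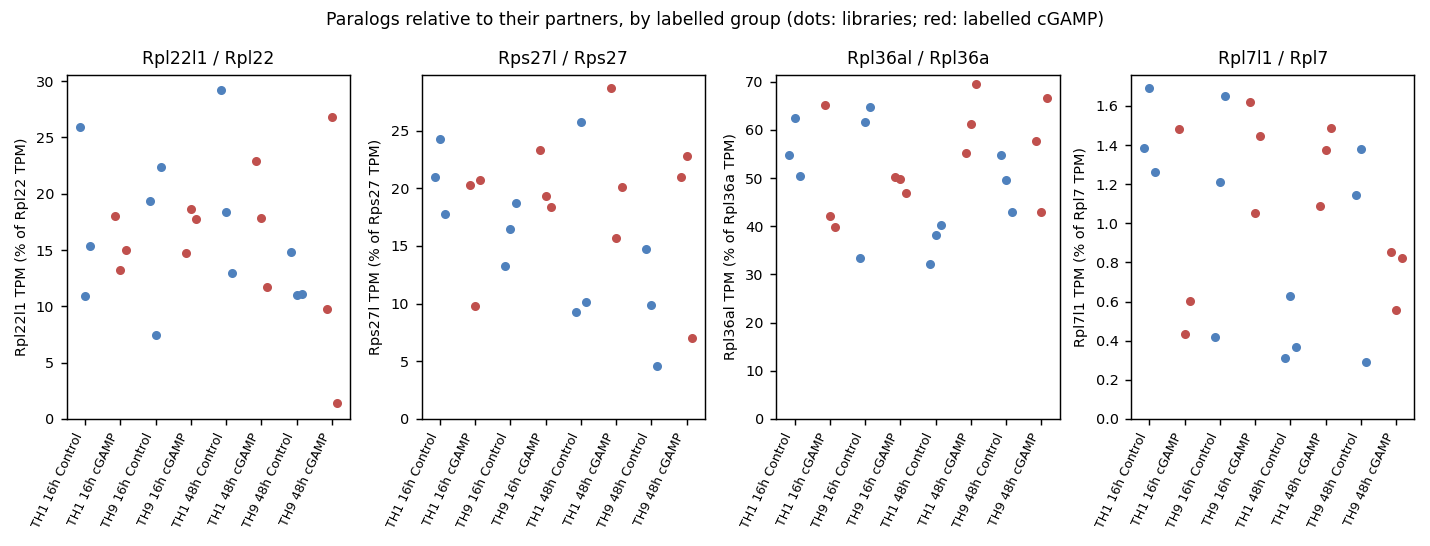
Each dot is 1 library by labelled group (red for cGAMP), and the 4 panels give the TPM of Rpl22l1, Rps27l, Rpl36al and Rpl7l1 as percent of the TPM of Rpl22, Rps27, Rpl36a and Rpl7, from 0 up. The medians are 15.2%, 18.5%, 50.3% and 1.12%, and libraries of 1 label spread over much of each panel.

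Labelled groups were compared with limma on log2(scaled TPM + 1) in 1 fit of all 24 libraries, with p-values adjusted by the Benjamini-Hochberg method over 15720 genes. Fold changes on this scale understate those of low genes. Members called at an adjusted p under 0.05 numbered 0 in each of the 8 comparisons and in both differences of the cGAMP effect between subsets, and limma called between 0 and 15 of all genes in them. Without the 8 libraries that went against their label it called between 290 and 1630 of all genes, and between 0 and 5 members. Counts at an unadjusted p under 0.05 are therefore given as a description, each beside its share over all genes. In bulk RNA, fewer cells of a type and less RNA per cell cannot be told apart.

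The question of cGAMP at 16 h was asked first in libraries labelled TH1. The members stayed centred, with a median log2 fold change of -0.02 and 40 of 86 above 0, where all tested genes had a median of 0.12. The test called 0 members and 0.00636% of all genes (1 gene, Gm14648). At an unadjusted p under 0.05, 0 members were higher and 1 lower, against 6.17% and 4.33% of all genes (10.5% in either direction). That member was Rpl7l1, at 33.2, 11.2 and 17.5 scaled TPM under cGAMP and 39.9, 48.0 and 31.1 under control (log2 fold change -1.02, SE 0.46, limma adjusted p = 0.47). Rps19bp1 had a log2 fold change of -0.94 (adjusted p = 0.47) and Rpl32l one of 0.58, on values listed at 0 in libraries of both groups. Rps6 differed by 0.09 and Rpl5 by 0.19. With 1 library left out the median lay between -0.21 (without TH1 16h cGAMP 2) and 0.11 (without TH1 16h cGAMP 1), and it was above 0 without TH1 16h Control 1 (0.06), TH1 16h Control 3 (0.0033) or TH1 16h cGAMP 3 (0.07). Without the 8 libraries that went against their label the median was 0.11 with 61 above 0, and limma called 2 members and 4.52% of all genes. Both were lower, Rpl7l1 at -1.57 (adjusted p = 0.0212) and Rps19bp1 at -1.49 (adjusted p = 0.0403), neither of them a structural part of the ribosome. Eif4ebp1 in the cGAMP libraries of that fit was 43.7 and 29.9 scaled TPM, and 48.7, 40.7 and 47.7 in TH1 48h Control. Effects of cGAMP and of time cannot be told apart for these 2 members.

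Ribosome assembly genes, by contrast, lay below 0 in that comparison. Of 40 ribosome biogenesis genes, 0 were above 0, with a median of -1.08, and 30 were lower at an unadjusted p under 0.05, where 4.33% of all genes were, while 0 passed the test over all genes. Nat10, which acetylates ribosomal RNA, was 49.6, 12.9 and 22.6 scaled TPM under cGAMP and 78.7, 78.2 and 65.8 under control (log2 fold change -1.55, SE 0.49, adjusted p = 0.47). The number of these genes lower at an unadjusted p under 0.05 was 3 without TH1 16h cGAMP 2 (1.09% of all genes). It was 8 without TH1 16h Control 1 (1.76%) or Control 2 (2.34%) and 15 without TH1 16h cGAMP 3 (3.03%). Without the 8 libraries that went against their label the median was -1.55, and limma called 20 of the 40 (4.52% of all genes), Nat10 with an adjusted p of 0.00466. Eif4ebp1, the translation repressor that mTOR phosphorylates, was 10.8, 43.7 and 29.9 scaled TPM under cGAMP and 9.45, 10.6 and 9.34 under control, and its part in the result was not tested. In TH1 48h Control it was 48.7, 40.7 and 47.7, so effects of cGAMP and of time cannot be told apart in this comparison, for the biogenesis genes or the members. Of 78 mitochondrial ribosomal protein genes, 8 were above 0 and 16 were lower at that p. The median of the mitochondrial list was -0.42, between those of the members and of the biogenesis genes.

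With cGAMP at 16 h in libraries labelled TH9, 64 of 86 members lay below 0, with a median of -0.15, against -0.04 over all genes. The test called 0 members and 0% of all genes, and 1 member was lower at an unadjusted p under 0.05 (5.34% of all genes) and 0 higher (2.25%, and 7.6% in either direction). Without TH9 16h Control 1 the lower members numbered 6 (4.1% of all genes). Of the members, 21 lay below control in every library, where 7.82% of all genes did. Rpl41, the shortest ribosomal protein, was 1008, 959 and 967 scaled TPM under cGAMP and 1297, 2347 and 1706 under control (log2 fold change -0.82, SE 0.39, adjusted p = 0.644). Rps16, at 261 to 374 against 444 to 637 scaled TPM, and Rps26, at 591 to 638 against 715 to 1238, likewise did not overlap, with log2 fold changes of -0.80 and -0.61 (adjusted p = 0.666 and 0.679). The 7 ribosomal proteins outside the naming rule had a median of -0.54 and all lay below 0, with the smallest p for Fau (-0.74), which is made as a fusion to a ubiquitin-like protein. Short transcripts moved the same way, with a median of -0.19 over 212 abundant genes of at most 1000 bases that are no members, and with a scaling over short transcripts only, added after the data had been seen, the members' median turned to 0.06 with 50 above 0. From the 16 libraries, the median was -0.09 with 33 above 0, and 0 members were called (2.28% of all genes). Of the biogenesis genes 39 of 40 lay above 0 (median 0.57), with Ncl at 0.94 and Nop58 at 1.15 the 2 higher at an unadjusted p under 0.05, where 2.25% of all genes were. Without TH9 16h Control 1 the median of the biogenesis genes was 0.08, and without TH9 16h Control 3 it was 0.97 with 18 higher (4.38% of all genes). With the 16 libraries that followed their label, the biogenesis median was 0.82 with 0 called. Eif4ebp1 was 14.0, 10.1 and 9.90 scaled TPM under cGAMP and 52.9, 51.6 and 10.6 under control. Effects of cGAMP and of time cannot be told apart here either, for the members or the biogenesis genes.

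At 48 h in libraries labelled TH1, 79 of 86 members lay below control under cGAMP, with a median log2 fold change of -0.37, and -0.0030 over all genes. None was called (0% of all genes). At an unadjusted p under 0.05, 9 were lower and 2 higher, against 7.22% and 7.15% of all genes (14.4% in either direction), and 16 lay below control without overlap, where 9.63% of all genes did. The 9 carry names of the large subunit, Rpl32l among them, and the 2 higher ones were Rps19bp1 and Rpl7l1, which are no structural parts of the ribosome. Rpl5, which with Rpl11 binds the small ribosomal RNA of the large subunit and can hold Mdm2, was 415, 530 and 288 scaled TPM under cGAMP and 779, 947 and 727 under control. The 3 cGAMP libraries lay below the 3 controls (log2 fold change -1.03, SE 0.33, adjusted p = 0.258). Rps19bp1 was 17.7, 28.0 and 27.4 under cGAMP and 9.97, 11.5 and 7.46 under control (1.24, SE 0.45, adjusted p = 0.278). Rpl32l, an annotated pseudogene, was listed at 0 in all 3 cGAMP libraries and at 2.89, 2.31 and 6.86 in the controls, and no fold is given.

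The size of this difference rested on 1 control library. Without TH1 48h Control 1 the median of the members was -0.13, with 25 above 0 and 3 lower at an unadjusted p under 0.05 (4.13% of all genes). Without TH1 48h Control 3 it was -0.54 with 24 lower (6.95%), and without TH1 48h cGAMP 3 it was -0.36 with 4 lower (4.08%). Over the 16 libraries only, the members' median was -0.45 with 8 above 0, 11 lower (11.4% of all genes) and 2 higher (8.44%) at an unadjusted p under 0.05, and 0 called (3.98% of all genes). Short abundant transcripts had a median of -0.16 here, and with a scaling over short transcripts the members' median was -0.23. Assembly genes went the other way again, with 38 of 40 biogenesis genes above 0, a median of 1.25, and 33 higher and 1 lower at an unadjusted p under 0.05 (7.15% and 7.22% of all genes), but 0 called. Pes1, of the complex that matures the large subunit, was 35.7, 56.9 and 49.3 scaled TPM under cGAMP and 25.2, 23.8 and 18.7 under control (log2 fold change 1.02, SE 0.28, adjusted p = 0.254). Heatr1, a factor of small subunit maturation, was 28.9, 51.5 and 43.3 against 7.60, 17.9 and 7.11 (1.91, adjusted p = 0.254). The 1 lower gene was Taf1d, a host gene of small nucleolar RNAs (-0.66, adjusted p = 0.319). The 33 higher biogenesis genes became 16 without TH1 48h Control 1 (4.55% of all genes) and 18 without TH1 48h cGAMP 2 (5.16%). They became 19 without TH1 48h Control 3 (5.34%) or TH1 48h cGAMP 3 (4.44%). In the fit of 16 libraries 38 biogenesis genes again lay above 0 and 12 were called, Pes1 among them (1.08, adjusted p = 0.0213). Eif4ebp1 was 31.2, 11.2 and 13.6 scaled TPM under cGAMP, 48.7, 40.7 and 47.7 under control and 9.45, 10.6 and 9.34 in TH1 16h Control. Effects of cGAMP and of time therefore cannot be told apart here, for the members or the biogenesis genes.

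In libraries labelled TH9 at 48 h the members were centred, with a median of 0.05 and 50 of 86 above 0, beside 0.01 over all genes. The counts were 0 called (0% of all genes), 2 higher (4.66%) and 1 lower (2.69%) at an unadjusted p under 0.05 (7.35% in either direction). These 3 were low-level copies. Rpl37rt was 39.2, 38.2 and 137 scaled TPM under cGAMP and 20.5, 23.0 and 3.91 under control (log2 fold change 2.14, SE 0.95, adjusted p = 0.668, and 1.54 without TH9 48h cGAMP 3). Rpl32l was 1.61, 4.31 and 4.33 under cGAMP and 1.55, 0 and 0 under control, and Rpl6l was listed at 0 in the 3 cGAMP libraries and at 1.89, 6.07 and 1.81 in the controls. Rps6 differed by -0.02, Rpl5 by 0.31 and Rpl13a, part of an interferon-γ-activated translation silencer in human myeloid cells, by 0.37, with adjusted p-values of 1, 0.866 and 0.842. Left-out libraries turned the direction, with medians of -0.17 without TH9 48h cGAMP 2 and -0.15 without TH9 48h Control 2. The median was 0.24 without TH9 48h Control 3, 0.18 without TH9 48h cGAMP 1 and 0.15 without TH9 48h cGAMP 3, the library that stood apart. Short abundant transcripts had a median of 0.31, more than the members. With a scaling over short transcripts the members' median turned to -0.20 with 16 above 0, and with upper-quartile scaling it was -0.0074 with 42 above 0. From the 16 libraries, it was 0.37 with 77 above 0, and limma called 1 member, Rpl6l, lower (adjusted p = 0.0326), beside 2.25% of all genes.

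The difference of the cGAMP effect between TH9 and TH1 labels was fitted directly. At 16 h it was called for 0 members (0% of all genes), with a median of -0.15 and 2 members higher at an unadjusted p under 0.05 (5.57% of all genes). Those were Rpl7l1 and Rps19bp1, with 0 lower (9.37%, and 14.9% in either direction). At 48 h it was called for 0 members (0% of all genes), with a median of 0.42, 77 of 86 above 0, and 6 higher (8.7%) and 1 lower (5.87%) at an unadjusted p under 0.05 (14.6% in either direction). With 1 library left out the higher members ran from 2 without TH9 48h Control 2 (5.63% of all genes) to 21 without TH9 48h Control 3 (12.7%). They numbered 12 without TH9 48h cGAMP 1 (8.87%), 16 without TH1 48h Control 3 (8.6%), and 3 without TH1 48h Control 1 (6.99%) or TH1 48h cGAMP 3 (6.31%). Without TH9 48h Control 3, limma called 1 member at 48 h, Rpl32l (adjusted p = 0.0417), the pseudogene listed at 0 in 11 of 24 libraries. With the 16 libraries that followed their label, the difference at 16 h had a median of -0.19 and was called for 2 members, Rpl7l1 (2.43) and Rps19bp1 (2.25), both higher, beside 10.4% of all genes. At 48 h it had a median of 0.74 with 82 above 0 and was called for 5 members, beside 10% of all genes. Rpl13a (1.93, adjusted p = 0.045), Rpl26 (1.81, adjusted p = 0.0247) and Rpl32l (adjusted p = 0.0121) were higher, and Rpl7l1 (-1.78, adjusted p = 0.0321) and Rps19bp1 (-1.82, adjusted p = 0.0464) lower. The differences use the libraries of the cGAMP comparisons above, so effects of cGAMP and of time cannot be told apart in them.

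Control libraries labelled TH9 and TH1 were set against each other at both times. At 16 h the members had a median of 0.09 with 61 above 0, 0 called (0% of all genes), and 0 at an unadjusted p under 0.05 in either direction (2.82% and 1.08% of all genes, 3.91% together). Among the smallest p-values were those of Rpl41 at 1297, 2347 and 1706 against 1270, 873 and 1212 scaled TPM (0.65, SE 0.39, adjusted p = 0.962) and Rps26 (0.56). Short abundant transcripts had a median of 0.19, and with a scaling over short transcripts the members' median turned to -0.07 with 35 above 0. Over the 16 libraries only, it was 0.05 with 51 above 0 and 0 called (2.65% of all genes). Eif4ebp1 was 52.9, 51.6 and 10.6 scaled TPM under TH9 and 9.45, 10.6 and 9.34 under TH1, so subset and time cannot be told apart. At 48 h, 79 of 86 members lay lower under the TH9 label, with a median of -0.42 (0.01 over all genes), 0 called (0% of all genes), and 10 lower (4.73%) and 0 higher (3.52%) at an unadjusted p under 0.05 (8.25% in either direction).

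Only 1 of these 10, Rpl32l, had groups that did not overlap, at 1.55, 0 and 0 under TH9 against 2.89, 2.31 and 6.86 under TH1. Rpl39, which lines the exit tunnel of the ribosome, was 978, 653 and 1218 against 2876, 1771 and 1082 scaled TPM (-0.94, SE 0.38, adjusted p = 0.579). Rpl13a was 1952, 1445 and 2722 against 5256, 3638 and 2225 (-0.82, SE 0.34, adjusted p = 0.586), with the lowest TH1 library inside the TH9 range. The median was -0.19 without TH1 48h Control 1, -0.21 without TH9 48h Control 2, and -0.60 without TH1 48h Control 3 or TH9 48h Control 3. The lower members numbered 29 (5.81% of all genes) and 30 (9.12%) without these last. They numbered 1 without TH1 48h Control 1 (3.08%) or TH9 48h Control 2 (2.14%), 4 without TH1 48h Control 2 (3.64%) and 5 without TH9 48h Control 1 (3.07%). Short abundant transcripts had a median of -0.37, near that of the members, and with a scaling over short transcripts the members' median was -0.10. In the fit of 16 libraries the median was -0.79 with 5 above 0, 32 lower (11.1% of all genes) and 0 higher (7.53%) at an unadjusted p under 0.05, and 0 called (3.5% of all genes).

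The widest shift of the members lay between the times of libraries labelled TH1 Control. At 48 h, 79 of 86 members were above their 16 h level, with a median log2 difference of 0.58, against 0.05 over all genes. The test called 0 of them and 0.00636% of all genes. At an unadjusted p under 0.05, 35 members were higher and 1 lower, where 12% and 8.96% of all genes were (20.9% in either direction). The groups did not overlap in 46 members that were higher at 48 h (18.1% of all genes). The 40S and 60S members had medians of 0.51 and 0.59.

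Rpl5 led, at 309, 281 and 435 scaled TPM at 16 h and 779, 947 and 727 at 48 h. All 3 libraries at 48 h lay above all 3 at 16 h (1.27, SE 0.33, adjusted p = 0.11). Rpl13a was 1829, 1468 and 1726 at 16 h and 5256, 3638 and 2225 at 48 h (1.07, SE 0.34, adjusted p = 0.121). Rpl22 had a log2 difference of 1.01 (adjusted p = 0.129), Rps15a of 0.98, Rps3, also known as a partner of NF-κB, of 0.87, Rpl11 of 0.79, Rps27a, made as a ubiquitin fusion, of 0.79, and Rps6 of 0.71 (adjusted p = 0.196). Rpl32l was listed at 0.501, 0 and 1.10 scaled TPM at 16 h and at 2.89, 2.31 and 6.86 at 48 h (adjusted p = 0.12). The 1 member that was lower at an unadjusted p under 0.05 was Rpl7l1, at 39.9, 48.0 and 31.1 and then 15.5, 22.1 and 9.73 scaled TPM (-1.32, SE 0.46, adjusted p = 0.133).

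The size of this shift moved with the scale and with single libraries. Without TH1 48h Control 1 the median was 0.36 and 6 members were higher at an unadjusted p under 0.05 (8.12% of all genes). Without TH1 16h Control 2 it was 0.48 with 9 members higher (7.88%), and without TH1 48h Control 3 it was 0.74 with 50 higher (11.1%). On unscaled TPM the median was -0.35, where that of all genes was -0.58, so the members stood above the other genes but below 0. Short abundant transcripts had a median of 0.47, and with scaling over short transcripts the members' median was 0.19. Limma called 43 members (41 higher, 2 lower) when it weighted the libraries by their fit, beside 3390 of all 15720 genes. When only these 6 libraries were fitted, it called Rpl5 alone of the members (adjusted p = 0.0356), beside 1153 genes. The replicate numbers were taken to pair these 6 libraries, though Il9 and Tbx21 in TH1 16h Control 3 and TH1 48h Control 3 went against the label. With the replicate as a block the fit of the 6 called 0 members and 20 genes in place of 1153, with an adjusted p of 0.0824 for Rpl5. With the block over all 24 libraries limma called 0 genes. From the 16 libraries, the median was 0.76 with 81 above 0, and 35 members were higher (12.5% of all genes) and 1 lower (8.67%) at an unadjusted p under 0.05. The test called 0 members (5.44% of all genes), with adjusted p-values of 0.0596 for Rpl5 and 0.0555 for Rpl13a.

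**Figure D5:**
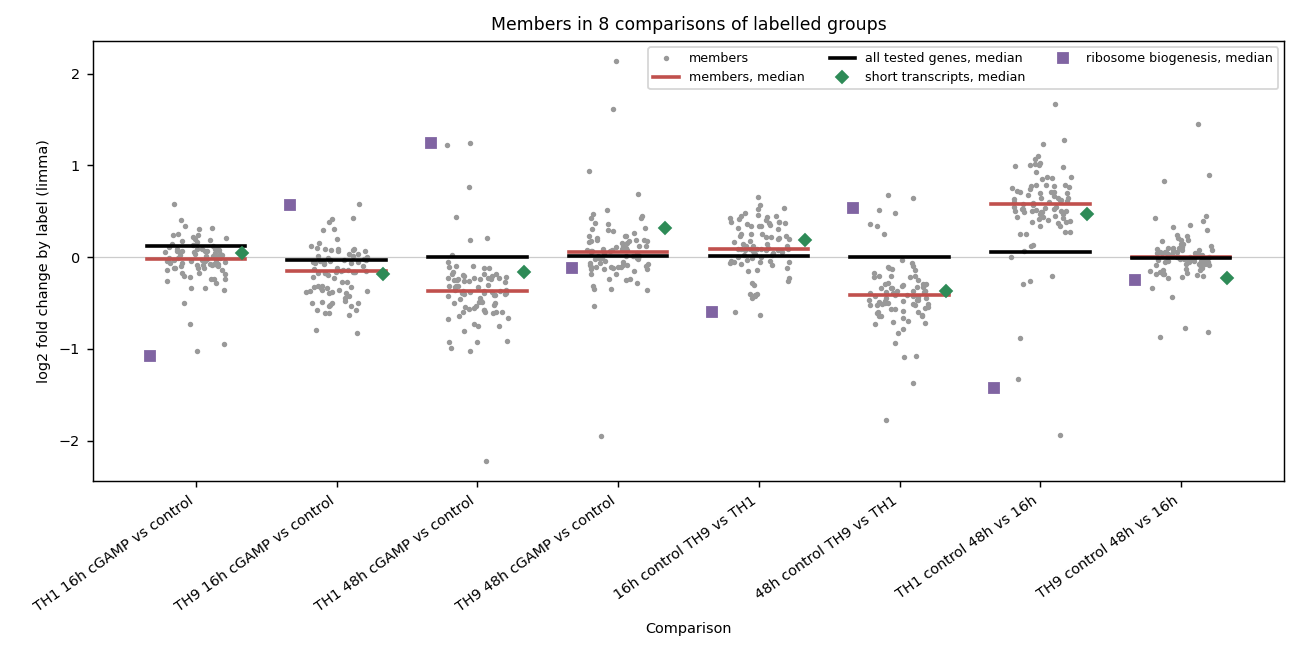
Grey dots are the log2 fold changes of the 86 members in each of 8 comparisons of labelled groups, with medians of members (red line), all tested genes (black line), 212 short abundant transcripts (diamond) and 40 ribosome biogenesis genes (square). The members reach their highest median, 0.58, in TH1 control at 48 h against 16 h, where the biogenesis median is -1.43.

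The other parts of the translation machinery did not all follow. Over the same 2 labels the 7 ribosomal proteins outside the rule had a median of 0.60 with all above 0, and Fau was 498, 354 and 502 scaled TPM at 16 h and 1291, 782 and 864 at 48 h (1.10, adjusted p = 0.129). Translation factors and other genes with TOP messages had a median of 0.17 with 11 of 18 above 0. Of the 40 biogenesis genes, 2 were above 0, with a median of -1.43, and 36 were lower and 1 higher at an unadjusted p under 0.05 (8.96% and 12% of all genes), with 0 called. With the 16 libraries that followed their label, 15 of the 40 were called (5.44% of all genes), Pes1 (-1.10, adjusted p = 0.0168) and Heatr1 (-1.97, adjusted p = 0.0215) among them. From all 24 libraries, Pes1 was 46.2, 62.3 and 44.3 scaled TPM at 16 h and 25.2, 23.8 and 18.7 at 48 h (-1.14, adjusted p = 0.11), and the higher gene was Taf1d (0.77, adjusted p = 0.147). Mitochondrial ribosomal proteins had 28 of 78 above 0 and a median of -0.17. Eif4ebp1 was 9.45, 10.6 and 9.34 scaled TPM at 16 h and 48.7, 40.7 and 47.7 at 48 h (2.11, SE 0.62, adjusted p = 0.115). Libraries of the TH9 Control labels were mixed in it, at 52.9, 51.6 and 10.6 at 16 h and 11.01, 10.1 and 61.8 at 48 h, so their time labels are in doubt. Myc was 94.4, 123 and 74.6 and then 46.6, 70.0 and 45.3 (-0.84, adjusted p = 0.251). The 3 comparisons that use TH1 48h Control share those libraries, as those that use any other control group do, so their values are not independent of each other.

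In libraries labelled TH9 Control the same times gave a median of 0.0018 for the members, with 44 of 86 above 0 and 0 called, beside 0.0954% of all genes (15 genes). At an unadjusted p under 0.05, 1 was higher (6.43% of all genes) and 0 lower (2.11%, and 8.54% in either direction). That member was Rpl6l, at 0, 0.457 and 0.941 scaled TPM at 16 h and 1.89, 6.07 and 1.81 at 48 h. Rps12l1, the copy of Rps12 (0.83, adjusted p = 0.618), and Rps3a3 (0.90, adjusted p = 0.59) had the next smallest p-values. Rps6 differed by 0.03 and Rpl5 by 0.29. The median was -0.18 without TH9 48h Control 3 and 0.21 without TH9 48h Control 2, which had the smallest scale factor, and on unscaled TPM it was -1.93, where all genes had a median of -1.46. Over the 16 libraries only, the members' median was -0.12 with 25 above 0 and 0 members called (1.84% of all genes), and Rps12l1 and Rps3a3 differed by 0.07 and 0.25. Both TH9 Control labels were mixed in Eif4ebp1, so these values cannot show whether the members changed with time.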

How the data were processed

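RNA from 24 libraries of cultured mouse CD4 T cells was measured by the authors as ribosomal RNA-depleted, stranded total RNA (500 ng, single reads of 76 bases). Reads were trimmed with Trimmomatic and assigned with kallisto on mm10, and DESeq2 is named for the authors' own comparisons. Tool versions were not stated, nor was the set of transcripts used. The authors deposited TPM, 1 value per gene symbol and library. TPM hold no read counts, so depth is unknown, and the number of libraries limits the precision.

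Libraries were grouped by label only. The members, lists and tests were chosen with earlier results of these data known. A gene was kept if 3 or more libraries held 1 TPM or more of it (15720 genes). Each library was divided by its median ratio to the geometric mean over 7838 genes at 1 TPM or more in every library, members left out. A limma fit with intensity trend (limma 3.58.1, R 4.3.3) used log2(scaled TPM + 1), 1 mean per label and all 24 libraries, two-sided, with Benjamini-Hochberg adjustment over all genes. The fit was tested on simulated data. The 3 libraries of a label come from independent experiments per the series' design text.

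Named members are the 8 paralog pairs, the 5 highest and 5 lowest in level, the 5 most and 5 least variable, the 3 smallest p in each comparison, Rps6, Rps3, Rpl5, Rpl11, Rpl13a and Rps27a, and members that are no ribosomal proteins. Others named were chosen after their values were seen. Shared 31-base words were counted in GENCODE vM21 transcripts (coordinates of GRCm38), and promoter sequences are from RefSeq (GRCm38.p6, the first listed start of a gene). Short transcripts are genes of at most 1000 bases with a mean log2 level of at least 5. Alternatives were pseudocounts of 0.1 and 10, no filter and a mean of 2 TPM, 3 other scalings, only the libraries compared, a replicate block, array weights and each library left out. Scaling over short transcripts and keeping only members at 100 scaled TPM were chosen later, with the data in view, as were leaving out the 8 libraries whose Il9 and Tbx21 went against the label and a replicate block with only the libraries compared. Replicate numbers were checked by the correlation of same-numbered deviations from the label means. Of 28 pairs of labels only TH1 16h Control and TH1 48h Control had all 3 over 0.1 (0.105 to 0.292), so the numbers were taken to pair these. Replicate 3 of both labels had Il9 above Tbx21 (Il9 at 11.0 and 21.6 TPM), unlike their other replicates. The correlation therefore cannot tell paired experiments from a shared condition inside these labels. Results of some genes are not reported here.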

Additional observations from a re-analysis of the deposited data

Results flagged for a closer look

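Rpl32l, an annotated processed pseudogene of Rpl32, was set apart because its cGAMP-labelled libraries at 48 h lay in opposite directions from control under the 2 subset labels, without overlap in either. The 3 libraries labelled TH1 cGAMP were listed at 0 and their controls at 2.31 to 6.86 scaled TPM, while those labelled TH9 cGAMP were at 1.61 to 4.33 and their controls at 0 to 1.55. The fitted difference of the effects, TH9 minus TH1, was 3.84 in log2(scaled TPM + 1), which depends on the pseudocount and is no fold, and it did not pass limma's test over all genes (SE 0.73, adjusted p = 0.184). Without the 8 libraries whose subset markers went against the label it was 3.58 (adjusted p = 0.0121). Rpl32l was picked from these same data, so that p-value is a description. Eif4ebp1 was mixed in these labels, so effects of cGAMP and of time cannot be told apart for Rpl32l.

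Rps19bp1, which binds Rps19, was set apart for the same reason. Its effect at 48 h was 1.24 under TH1 labels and -0.35 under TH9 labels, a difference of -1.59 (SE 0.64, adjusted p = 0.269 from limma), and the TH9 groups were separated only narrowly, at 7.86 to 13.0 scaled TPM under cGAMP and 13.0 to 16.1 under control. Without those 8 libraries the difference was -1.82 (adjusted p = 0.0464). The same labels are used, so cGAMP and time cannot be told apart for Rps19bp1 either.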

How the results depend on the processing

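Members called numbered 0 in all 8 comparisons with all 24 libraries. In TH1 control at 48 h against 16 h they numbered 43 with array weights (41 higher, 2 lower), beside 3390 of all 15720 genes. They numbered 1 (Rpl5) when only the 6 libraries compared were fitted, beside 1153 genes. On unscaled TPM 2 were lower, beside 1580 lower genes, and with scaling over short transcripts 1 was lower, beside 492. On unscaled TPM 76 were called lower in TH9 control over time, where 9495 of all 15720 genes were called lower. Leaving out 1 library gave 0 members called in every comparison and 0 to 1 for the difference at 48 h. The medians of the members moved by more than the spread between libraries on unscaled TPM, to 0.78 (TH9 48h cGAMP), 0.48 and -1.03 (TH9 against TH1 control at 16 h and 48 h), -0.35 and -1.93 (TH1 and TH9 control over time). For TH1 control over time the median was 0.22 without the 20 most abundant symbols and 0.19 with short transcripts, and for 48 h controls it was -0.10 with short transcripts. Rps3a3 (-0.13) and Rps12l1 (-1.10) changed sign over time in TH9 control on unscaled TPM, where the median of all genes was -1.46.

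Without the 8 libraries that went against their label, genes called numbered 711 and 358 (TH1 and TH9 16h cGAMP), 625 and 353 (TH1 and TH9 48h cGAMP), 417 and 550 (controls at 16 h and 48 h), 855 and 290 (TH1 and TH9 control over time) and 1630 and 1573 (differences at 16 h and 48 h). Members called numbered 2 at TH1 16h cGAMP, 1 at TH9 48h cGAMP and 2 and 5 for the differences, and the members' median moved to 0.37 at TH9 48h cGAMP and to -0.79 for the 48 h controls.

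Genes called at TH1 16h cGAMP numbered 1, and 0 with either pseudocount, a mean of 2 TPM, only the libraries compared or the replicate block, 4 without a filter and 19 with array weights. TH9 16h cGAMP gave 191 with array weights, TH1 48h cGAMP 1 with pseudocount 0.1, without a filter or without the most abundant symbols, and TH9 48h cGAMP 20 without a filter. The 48 h controls gave 1 with pseudocount 0.1 or without the most abundant symbols, 3 with pseudocount 10, 20 without a filter, 2 with upper-quartile scaling and 6 with array weights. TH1 control over time gave 0 with pseudocount 10, a mean of 2 TPM or the replicate block, 1583 on unscaled TPM, 295 without the most abundant symbols, 1153 with only the libraries compared, 3390 with array weights and 501 with short transcripts. TH9 control over time gave 25 without a filter, 9538 unscaled, 0 without the most abundant symbols, 1 with only the libraries compared and 278 with array weights. The difference at 16 h gave 1 unscaled. With 1 library left out, genes called ran from 0 to 1 (TH1 16h cGAMP), 0 to 4 (TH9 16h and TH9 48h cGAMP), 0 to 2 (TH1 48h cGAMP, 16 h controls and TH1 control over time), 0 to 3 (48 h controls), 0 to 24 (TH9 control over time), and 0 to 5 and 0 to 398 for the differences at 16 h and 48 h.

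Replicate numbers did not pair cGAMP with control libraries, where the correlation of same-numbered deviations was between -0.188 and 0.0532 over 12 pairs. TH1 control over time is the exception described under the processing, where the block with only the 6 libraries compared called 20 genes (19 higher, 1 lower). Under the block over all 24 libraries 0 members were called. Labels that the subset markers go against, some of them also mixed in Eif4ebp1, limit every direction, and the depth behind TPM is unknown.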
